A study of Mus musculus with 6 samples.

Results

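Collagen genes were followed in the mandibular arch, the part of the first pharyngeal arch from which the lower jaw grows, taken from C57BL/6 mouse embryos at E9.5. The members were all genes whose array annotation gave exactly 1 symbol of the form Col, number, a, number: 44 of 19938 genes measured, read from 46 probe sets, with the brighter probe set used for the 2 genes (Col6a5 and Col6a6) that had more than 1. There were 3 arrays of Tbx1-/- tissue (Tbx1 null) and 3 of Tbx1+/+ tissue (wild type), with no treatment. Tbx1 is a T-box transcription factor needed for the pharynx to form its arches and pouches, and the comparison asks which arch transcripts change in its absence. Tissue from 3 embryos of a genotype was combined, without a statement that the arrays had separate pools, so p-values measure only the spread between these arrays, which may be partly technical. The kind of null allele is not named in these sources.

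Collagens are secreted or membrane-bound proteins whose chains wind into a triple helix of 3 chains. Fibrillar collagens build the ropes of connective tissue, cartilage and bone; basement membrane collagens form sheets or attach to the sheets on which epithelia and vessels rest; the others decorate fibrils, form fine filaments or span the cell membrane. At this stage the arch is a core of mesoderm inside neural crest mesenchyme, wrapped in ectoderm and endoderm, and jaw cartilage has not yet formed. The 44 genes were sorted by what their proteins build: 11 fibrillar (types I, II, III, V, XI, XXIV and XXVII), 8 of basement membranes (the 6 type IV chains, and types XV and XVIII, called multiplexins) and 25 others.

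Promoter sequences are shown for the collagens of lowest p that the RefSeq table for GRCm38.p6 holds, as the stretch directly before the start of transcription in which transcription factors commonly bind. The table held 35 of the 44 genes in 38 windows, and Col2a1 and Col12a1 were not among them. Each line is the 250 bases before an annotated start, 5′ to 3′ on the gene's own strand. Capitals mark matches on either strand to the T-box half-site GGTGTGA, the CCAAT box CCAAT, the TATA box TATAAA or the GC box GGGCGG; no matches overlapped in these windows.
Col23a1, chr11:51289670-51289919, plus strand: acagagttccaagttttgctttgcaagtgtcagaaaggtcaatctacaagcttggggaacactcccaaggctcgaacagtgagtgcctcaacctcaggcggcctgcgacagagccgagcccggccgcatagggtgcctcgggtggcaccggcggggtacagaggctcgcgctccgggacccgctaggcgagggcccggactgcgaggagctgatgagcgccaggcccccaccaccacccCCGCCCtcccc
Col3a1, chr1:45311288-45311537, plus strand: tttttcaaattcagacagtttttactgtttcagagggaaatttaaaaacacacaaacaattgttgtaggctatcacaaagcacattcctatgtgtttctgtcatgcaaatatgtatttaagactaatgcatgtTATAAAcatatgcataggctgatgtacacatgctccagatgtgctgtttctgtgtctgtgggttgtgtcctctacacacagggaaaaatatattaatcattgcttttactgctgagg
Col18a1 upstream start, chr10:77166531-77166780, minus strand: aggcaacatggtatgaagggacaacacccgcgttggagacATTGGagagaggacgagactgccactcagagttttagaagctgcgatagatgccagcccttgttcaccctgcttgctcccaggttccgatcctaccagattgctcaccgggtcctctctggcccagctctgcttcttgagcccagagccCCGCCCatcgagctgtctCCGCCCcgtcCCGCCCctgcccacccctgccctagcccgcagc
Col18a1 downstream start, chr10:77113706-77113955, minus strand: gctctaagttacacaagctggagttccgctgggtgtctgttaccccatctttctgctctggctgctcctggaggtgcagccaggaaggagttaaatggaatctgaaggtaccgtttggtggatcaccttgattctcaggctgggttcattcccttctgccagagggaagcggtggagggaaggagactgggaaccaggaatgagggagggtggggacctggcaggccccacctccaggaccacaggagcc

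The windows differ in kind. The Col23a1 window held 1 GC box, the Col3a1 window 1 TATA box, the upstream window of Col18a1 1 CCAAT box and 3 GC boxes, and the downstream one none of the 4 motifs. Over all collagen windows GC boxes were found in 22 of 38 (57.9%), against 32.7% of 32851 windows of the whole table, and CCAAT boxes in 13 of 38 (34.2%), against 33.8%. TATA boxes were found in 5 of 38 (13.2%), against 12.4%. The T-box half-site was found in 0 of 38, against 3.33% of all windows, which says only that these letters are not in these stretches. The matches describe the letters and were not tested as binding sites.

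The labels were checked on Tbx1 itself, whose log2 level was 11.64, 11.36 and 11.31 on the wild-type arrays and 9.48, 9.39 and 9.63 on the Tbx1 null arrays (3.83-fold lower, limma adjusted p = 0.000684). Values throughout are the authors' log2 levels after RMA, with array medians between 7.98 and 8.04; levels of different genes come from different probes and are not set against each other. All 7 arch mesenchyme markers (Prrx1, Prrx2, Twist1, Dlx1, Dlx2, Dlx5 and Pdgfra) lay above the median level of all genes, 8.55, as did 7 of 8 epithelial and 8 of 8 endothelial markers. Of the cell type markers, 4 of 8 for epithelium were higher in Tbx1 null at an unadjusted p under 0.05, where 5.5% of all genes were higher and 3.94% lower (mean log2 level 10.81 to 10.88 on wild-type and 10.97 to 11.05 on Tbx1 null arrays) and 7 of 7 for primitive erythroid cells were lower (10.03 to 10.11 against 9.73 to 9.80), while 0 of 8 for endothelium passed that level (10.58 to 10.60 against 10.45 to 10.65). The mean level of 5 core mesoderm and muscle markers was also lower (8.31 to 8.41 against 7.74 to 7.85). Their differences were uneven, from -1.56 for Lhx2 to 0.02 for Musk, with 4 of 5 below 0 (53.5% of all genes). That of 6 heart markers was higher (8.29 to 8.44 against 8.59 to 8.91), with 5 of 6 above 0 and Nppa at -0.09. The mean level of migratory crest and glia markers, 4 measured, was lower (8.90 to 9.53 against 8.63 to 8.82), but not evenly. Ngfr differed by -0.70 (limma adjusted p = 0.0142), Sox10 by -0.85, Foxd3 by -0.15 and Erbb3 by 0.0005. The 9.53 was wild type replicate 1, without which Sox10 differed by -0.44. Arch mesenchyme means lay between 12.13 and 12.17 in wild type and 12.18 and 12.22 in Tbx1 null. Of these 7 markers 2 (Prrx1 and Prrx2) were higher at an unadjusted p under 0.05. What part these markers have in the collagen values was not tested. In bulk tissue, fewer cells of a type and less RNA per cell cannot be told apart.

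The third wild-type array stood apart for the collagens. It held the lowest wild-type value for 35 of 44 collagens (79.5%), against 35.4% of all genes, and for 24 of the 25 collagens below the median level of all genes (96.0%), against 56.3% of all genes below it. Relative to each gene's mean over the 6 arrays, the median collagen was 0.064 and 0.051 higher on wild type replicates 1 and 2 and -0.076 on replicate 3. On Tbx1 null replicates 1, 2 and 3 it was -0.0074, 0.013 and -0.063. The shift between arrays of 1 genotype was thus larger than the median difference between genotypes, -0.040. Many members are therefore also given without wild type replicate 3. Without it 34 of 44 collagens lay below 0, against 31 with all 6 arrays, and 3 changed sign (Col10a1, Col9a3 and Col4a5).

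**Figure D1:**
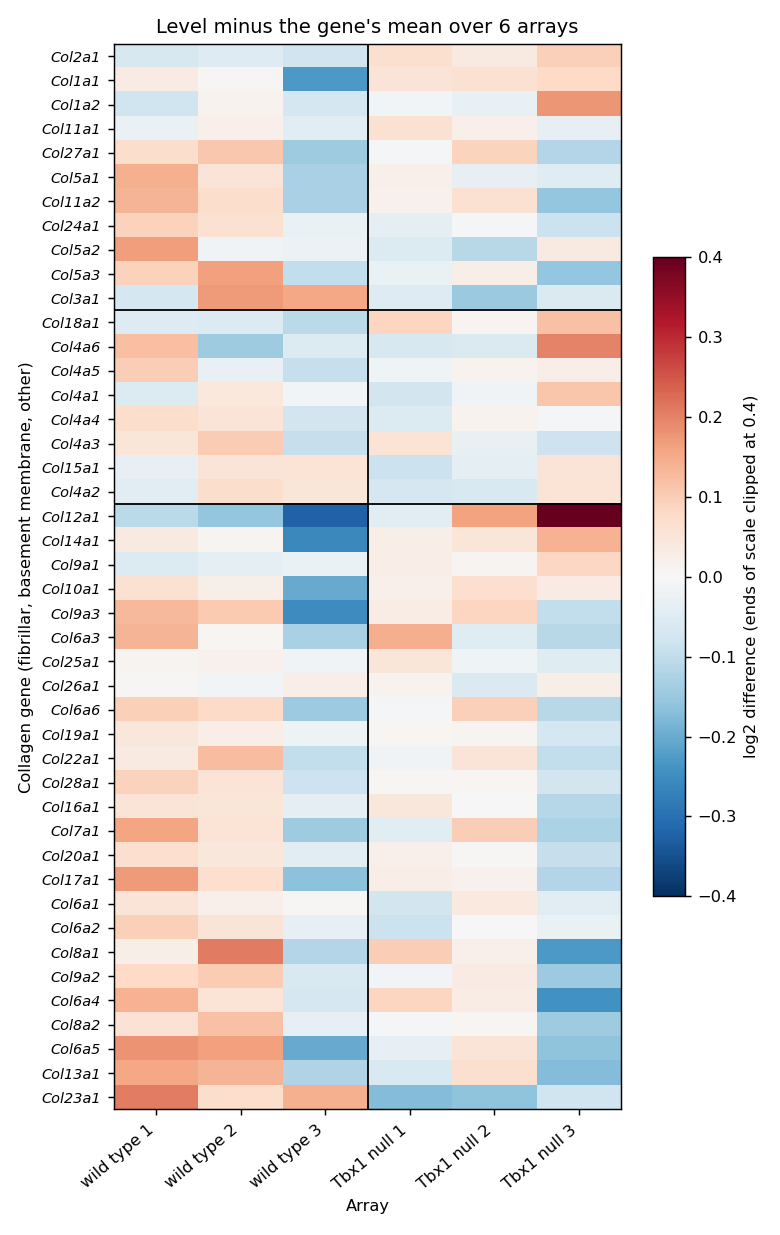
Level of each of the 44 collagens on each array minus that gene's mean over the 6 arrays (colour, log2 scale, ends of the scale clipped), in rows grouped as fibrillar, basement membrane and other, with wild-type arrays left and Tbx1 null arrays right. Wild type replicate 3 is the lowest wild-type array in 35 of 44 rows, and Tbx1 null replicate 3 is the lowest Tbx1 null array in 24 of 44.

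Collagen transcripts differed little between Tbx1 null and wild-type arches. None of the 44 passed a limma adjusted p of 0.05, against 0.16% of all genes tested (0.0853% higher and 0.0752% lower), and the smallest adjusted p was 0.131, for Col23a1. An unadjusted p under 0.05 was reached by 5 of 44 collagens (11.4%), against 9.44% of all genes: Col12a1, Col2a1 and Col18a1 higher (5.5% of all genes) and Col23a1 and Col3a1 lower (3.94% of all genes). The arrays of the genotypes did not overlap for 6 of 44 (13.6%), against 15.4% of all genes; 5 of these were higher in Tbx1 null (8.36% of all genes) and 1 lower (7.06%). That split depends on the scaling, for all genes as well as for collagens. It was 3 higher and 7 lower after a further quantile normalisation, where all genes went from 1666 higher and 1407 lower to 1354 and 2244. With arrays centred on their medians it was 3 higher and 6 lower, where all genes had 917 and 2531. The shares of 11.4% and 13.6% are near the background. Log2 differences (Tbx1 null minus wild type) ran from -0.28 to 0.39 with a median of -0.040, against -0.0061 over all genes. Of the 44, 31 lay below 0 (70.5%, against 53.5% of all genes). Of the collagens below the median level of all genes 80% lay below 0, against 58.9% of all genes below that level.

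**Figure D2:**
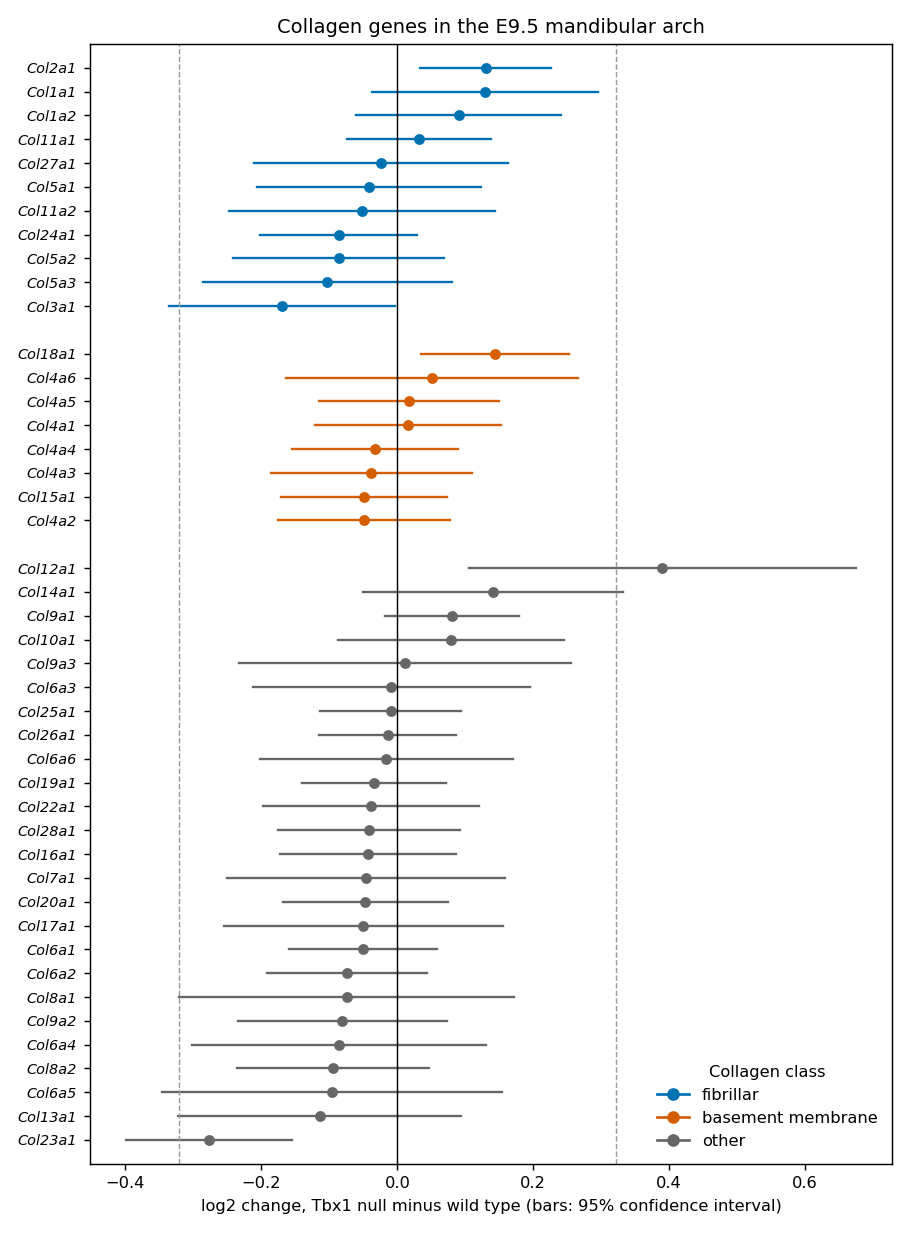
Log2 difference between Tbx1 null and wild type for each collagen (point) with its 95% confidence interval (bar), 3 arrays per genotype, grouped and coloured by class; dashed lines mark 1.25-fold in either direction. The intervals of 38 of 44 collagens lie inside the dashed lines.

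The intervals show how large a difference these arrays leave room for. For 38 of 44 collagens the 95% confidence interval, not adjusted for the number of genes, lay within 1.25-fold in both directions (86.4%, against 89.3% of all genes), and for 43 within 1.5-fold. The 6 whose interval reached past 1.25-fold were Col12a1, Col23a1, Col3a1, Col14a1, Col13a1 and Col6a5, and Col12a1 alone reached past 1.5-fold. In simulated arrays with 19938 genes and variances drawn from the limma model, 50 genes were changed at each of 1.25-, 1.5-, 2- and 4-fold. The test recovered 23 of 50 at 1.25-fold, 44 of 50 at 1.5-fold and 50 of 50 at 2-fold, so smaller differences would often be missed. It called 175 genes there, against 32 in these data. The unadjusted p needed was therefore less strict, and these counts likely overstate recovery here. The median SE was also larger for collagens, 0.0656 against 0.0579 over all genes. RMA tends to shrink differences of dim probe sets, and 25 of the 44 collagens were below the median level of all genes.

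Fibrillar collagens went both ways, with 0 of 11 past the threshold, 4 above 0 and 7 below and a median difference of -0.042. At an unadjusted p under 0.05, 1 was higher and 1 lower (18.2% of the 11, against 9.44% of all genes). Col2a1 (probe set 10432045, Entrez gene 12824), the chain of cartilage collagen II that is also made in notochord and early skull tissues, had log2 levels of 10.06, 10.07 and 10.04 in wild type and 10.19, 10.16 and 10.22 in Tbx1 null. Every Tbx1 null array was above every wild-type array. The difference was small, 1.09-fold (log2 0.13, SE 0.04, 95% interval 0.03 to 0.23; limma adjusted p = 0.372).

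Col11a1 and Col11a2, the chains that join collagen II in cartilage fibrils, did not differ in the same way. Col11a1 had 8.71, 8.76 and 8.70 in wild type and 8.80, 8.76 and 8.70 in Tbx1 null, with overlapping arrays and a difference of 0.03. Col11a2 had 8.51, 8.45 and 8.25 against 8.39, 8.44 and 8.22, a difference of -0.05, or -0.13 without wild type replicate 3. Of the 4 notochord markers measured, Krt8, which is also epithelial, was higher at an unadjusted p under 0.05 (5.5% of all genes). The mean log2 level of the list was 9.05 to 9.07 on wild-type and 9.11 to 9.14 on Tbx1 null arrays. The part of these markers in the Col2a1 difference was not tested.

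Col1a1 and Col1a2 encode the chains that assemble 2 to 1 into collagen I, the main fibril of bone, skin and tendon. Col1a1 (probe set 10380419) measured 9.29, 9.27 and 9.03 in wild type and 9.32, 9.32 and 9.34 in Tbx1 null. The genotypes did not overlap, but the mean difference of 0.13 (SE 0.07, limma adjusted p = 0.647) rested largely on wild type replicate 3 and was 0.046 without it. Col1a2 measured 10.22, 10.32 and 10.23 against 10.29, 10.27 and 10.48, with overlap, and differed by 0.09 (SE 0.07), or by 0.025 without Tbx1 null replicate 3. Neither chain differed by an amount the test could call, and each difference rests largely on 1 array.

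Col3a1 (probe set 10346015, Entrez gene 12825), the homotrimeric collagen of vessel walls and loose connective tissue, lay lower. It measured 9.25, 9.49 and 9.48 in wild type and 9.27, 9.18 and 9.27 in Tbx1 null, so that wild type replicate 1 lay among the Tbx1 null arrays. The difference was -0.17 (SE 0.07, 95% interval -0.34 to -0.00; limma adjusted p = 0.513), or -0.25 when wild type replicate 1 was left out and -0.13 when replicate 2 was. Endothelial markers stand beside it with 6 of 8 below 0 (53.5% of all genes) and a median of -0.037. Their part in the Col3a1 difference was not tested.

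The type V chains, which sit inside collagen I fibrils and set their width, were all slightly below wild type without passing. Col5a1 measured 8.97, 8.87 and 8.70 against 8.84, 8.79 and 8.78 (difference -0.04). Col5a2, the neighbour of Col3a1 in the RefSeq gene order, measured 8.89, 8.71 and 8.70 against 8.67, 8.61 and 8.76 (difference -0.09). Col5a3 measured 8.18, 8.25 and 7.99 against 8.06, 8.11 and 7.93 (difference -0.10). In all 3 the genotypes overlapped, and the lowest wild-type array was again replicate 3; without it the differences were -0.12, -0.12 and -0.18. The fibrillar collagens of a separate lineage, Col24a1 (8.20, 8.17 and 8.09 against 8.07, 8.11 and 8.03) and Col27a1 (9.17, 9.21 and 8.96 against 9.09, 9.19 and 8.98), differed by -0.09 and -0.02. Without wild type replicate 3 these 2 differences were -0.12 and -0.10.

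Basement membrane collagens were close to level: 0 of 8 passed, 4 lay above 0 and 4 below, the median difference was -0.0083, and all 8 intervals lay within 1.25-fold. With Col7a1 and Col17a1 counted in, the median was -0.035, and with array weights -0.052. The exception in size was Col18a1 (probe set 10370259, Entrez gene 12822), the multiplexin of epithelial and vascular basement membranes whose cleaved C-terminal end is endostatin. It measured 10.52, 10.52 and 10.47 in wild type and 10.66, 10.59 and 10.69 in Tbx1 null. All Tbx1 null arrays lay above all wild-type arrays, by 1.11-fold on average (log2 0.14, SE 0.05, 95% interval 0.04 to 0.25; limma adjusted p = 0.377). The gene has 2 annotated start regions, both printed above, and a single value per gene does not separate them. Col15a1, the other multiplexin, measured 9.34, 9.42 and 9.43 against 9.28, 9.33 and 9.42, with overlapping arrays and a difference of -0.05.

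The 6 type IV chains are encoded as head-to-head gene pairs. The chains of Col4a1 and Col4a2 form the network found in nearly all basement membranes. Their annotated starts lie 21 bases apart in GRCm38.p6, placed so that the annotated genes overlap there. Those of Col4a5 and Col4a6 lie 1343 bases apart, with a gap between the genes. Col4a1 measured 9.61, 9.71 and 9.66 in wild type and 9.59, 9.65 and 9.78 in Tbx1 null (difference 0.02). Col4a2 measured 9.73, 9.84 and 9.82 against 9.70, 9.71 and 9.83 (difference -0.05). Both overlapped between genotypes, and in both Tbx1 null replicate 3 was the highest of its genotype.

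The chains of more restricted basement membranes also overlapped between genotypes. Col4a3, a chain of the kidney and lung network, measured 7.72, 7.78 and 7.58 against 7.73, 7.65 and 7.59 (difference -0.04). Its pair partner Col4a4 measured 7.72, 7.70 and 7.58 against 7.60, 7.67 and 7.65 (difference -0.03). Col4a5 measured 8.12, 7.99 and 7.93 against 8.01, 8.04 and 8.05 (difference 0.02), and Col4a6, its X-linked partner, 8.31, 8.05 and 8.13 against 8.12, 8.13 and 8.39 (difference 0.05). Without wild type replicate 3 the differences of Col4a3, Col4a4, Col4a5 and Col4a6 were -0.09, -0.08, -0.02 and 0.04. With all 6 arrays no type IV chain reached an unadjusted p under 0.05. In each of the 3 pairs the partners then differed from each other by less than 0.1 in their mean shift.

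**Figure D3:**
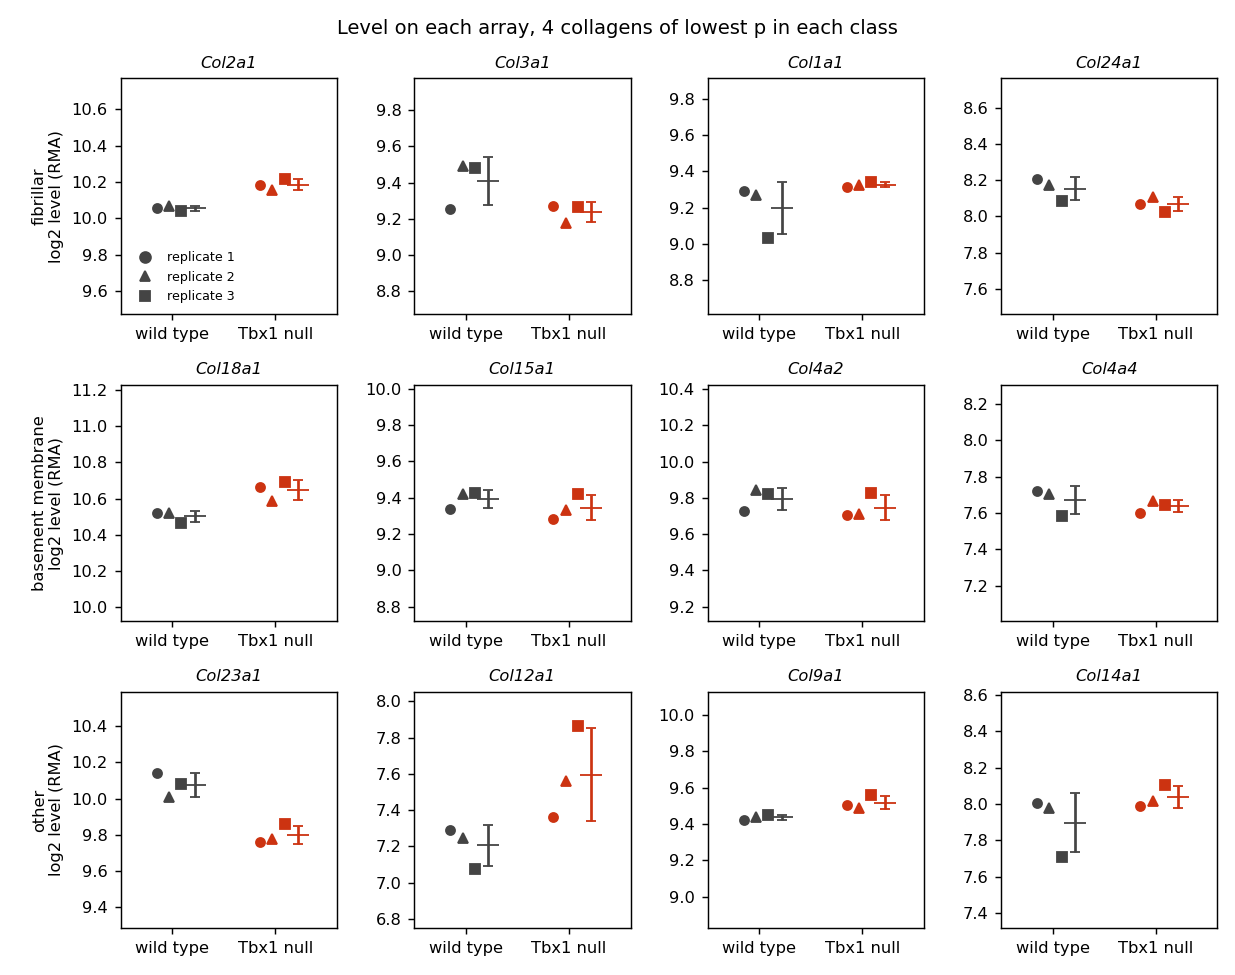
Log2 level on each array (points, shape by replicate number) with mean and SD (bar) for the 4 collagens of lowest p in each class, 1 class per row, wild type in grey and Tbx1 null in red; every panel spans the same log2 range around its gene's mean. Col23a1 lies lower and Col2a1, Col18a1, Col12a1, Col9a1 and Col1a1 higher on all 3 Tbx1 null arrays, while the other 6 overlap.

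Among the 25 other collagens 0 passed, 5 lay above 0 and 20 below (80%, against 53.5% of all genes). The median difference was -0.043. The lowest p of any collagen belonged to Col23a1 (probe set 10375838, Entrez gene 237759), 1 of 4 membrane-spanning collagens, a cell-surface protein that can be shed and that binds integrin. It measured 10.14, 10.01 and 10.08 in wild type and 9.76, 9.78 and 9.86 in Tbx1 null. All Tbx1 null arrays lay below all wild-type arrays, 1.21-fold lower on average (log2 -0.28, SE 0.05, 95% interval -0.40 to -0.15; limma adjusted p = 0.131). Col23a1 was the only collagen called under any alternative, lower with array weights (log2 -0.25, adjusted p = 0.0342), a setting that called 334 genes in all against 32; over the 15 alternatives its difference ran from -0.31 to -0.24 and its adjusted p from 0.0342 to 0.460.

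The remaining membrane-spanning collagens were also below 0 and overlapped between genotypes. Col13a1, of cell adhesions and the neuromuscular junction, measured 8.51, 8.48 and 8.23 against 8.29, 8.41 and 8.17 (difference -0.11, or -0.20 without wild type replicate 3). Col17a1, of the hemidesmosomes that anchor basal keratinocytes, measured 8.18, 8.08 and 7.85 against 8.04, 8.03 and 7.90 (difference -0.05, or -0.14 without that array). Col25a1, a neuronal collagen, measured 8.05, 8.06 and 8.03 against 8.092, 8.025 and 7.996 (difference -0.01). Col7a1, the anchoring fibril of the skin's basement membrane, had a difference of -0.05, or -0.13 without wild type replicate 3.

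The largest difference in size was that of Col12a1 (probe set 10595211, Entrez gene 12816), a FACIT, that is, a collagen with interrupted helices that lies on the surface of fibrils. It measured 7.29, 7.25 and 7.08 in wild type and 7.36, 7.56 and 7.87 in Tbx1 null. The arrays did not overlap, but the Tbx1 null arrays spread widely (SD 0.25, against 0.11 in wild type). The mean was 1.31-fold higher (log2 0.39, SE 0.12, 95% interval 0.11 to 0.67; limma adjusted p = 0.364), and 0.25 without Tbx1 null replicate 3. Col14a1, a FACIT of similar build, measured 8.004, 7.976 and 7.709 against 7.99, 8.02 and 8.11, with overlap, and differed by 0.14, or by 0.047 without wild type replicate 3.

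The type IX chains, which coat the collagen II fibrils of cartilage as a heterotrimer, did not move as a set. Col9a1 measured 9.42, 9.44 and 9.45 in wild type and 9.504, 9.489 and 9.559 in Tbx1 null, without overlap but with a difference of 0.08 (SE 0.04, limma adjusted p = 0.627). Col9a2 measured 8.81, 8.83 and 8.66 against 8.72, 8.76 and 8.58 (difference -0.08, or -0.13 without wild type replicate 3). Col9a3 measured 9.38, 9.36 and 8.998 against 9.28, 9.34 and 9.15 (difference 0.01); this value rests on wild type replicate 3 and was -0.11 without it. The last 2 overlapped between genotypes. The further FACIT genes Col16a1, Col19a1, Col20a1 and Col22a1 had differences between -0.05 and -0.03. Without wild type replicate 3 these were -0.07, -0.05, -0.08 and -0.10.

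The 6 type VI chains, which form beaded filaments around cells, all lay below 0 (median -0.062), as did 53.5% of all genes. Their arrays overlapped, and 0 reached an unadjusted p under 0.05. The direction is not steady: 4 lay below 0 without wild type replicate 1 and 3 without Tbx1 null replicate 3. Col6a1 measured 8.29, 8.26 and 8.25 against 8.17, 8.28 and 8.20, and its chromosomal neighbour Col6a2 8.48, 8.43 and 8.35 against 8.30, 8.38 and 8.36. Col6a3, the long chain that completes the classical heterotrimer, measured 8.25, 8.12 and 7.98 against 8.26, 8.06 and 8.004. These differences were -0.05, -0.07 and -0.01. Col6a4, Col6a5 and Col6a6, adjacent in the RefSeq gene order, encode chains that can take the place of the third; they had differences of -0.09, -0.10 and -0.02. In all 6, wild type replicate 3 was the lowest wild-type array; without it the differences ran from -0.22 (Col6a5) to -0.06, with a median of -0.10 and -0.09 for Col6a6.

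The last members gave no larger differences. Of the network-forming collagens, Col8a1 and Col8a2, the chains of the sheet under corneal and vessel endothelium, had differences of -0.07 and -0.09. Without wild type replicate 3 these differences were -0.15 and -0.135. Col10a1, the marker of hypertrophic cartilage, had one of 0.08, or -0.0028 without wild type replicate 3; it measured 6.88, 6.84 and 6.62 against 6.84, 6.89 and 6.85, near the first quartile of all genes at 6.81, and whether it is above background cannot be judged because no background probes were used here. Col26a1 measured 11.20, 11.19 and 11.23 against 11.21, 11.14 and 11.22, a difference of -0.01 with an SE of 0.04. Col28a1 had a difference of -0.04, or -0.09 without wild type replicate 3.

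Wild type replicate 3 decided how many collagens were separated between genotypes. Without it 22 of 44 (50%) had no overlap, 5 higher and 17 lower, where 32.7% of all genes had none in that comparison of 3 against 2 arrays. The median collagen difference was then -0.086, against -0.0055 over all genes. At an unadjusted p under 0.05 there were 7 collagens (2 higher and 5 lower), 15.9% against 13.6% of all genes (1388 higher and 1332 lower). Again 0 passed an adjusted p of 0.05. Without Tbx1 null replicate 3 the median was -0.0054, and the count at an unadjusted p under 0.05 was 3 (6.82%, against 7.66% of all genes). The small lower median of the collagens therefore depends on which array is counted.

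The machinery that makes and matures collagen held no call either. Of 31 collagen maturation genes, 28 were measured and 0 passed; 6 reached an unadjusted p under 0.05, with 3 on each side (21.4%, against 9.44% of all genes), and the median was -0.030. The 3 higher were P3h2, a prolyl 3-hydroxylase that acts on collagen IV (11.13 ± 0.05 to 11.29 ± 0.02, SD, n = 3 each), Bmp1, the protease that trims procollagen ends (11.02 ± 0.07 to 11.20 ± 0.04), and the cross-linking oxidase gene Loxl1 (8.44 ± 0.11 to 8.68 ± 0.08). Their limma adjusted p-values were 0.302, 0.322 and 0.335. The 3 lower were Colgalt2, P4ha1 and P3h1, by 0.14, 0.13 and 0.15. Serpinh1, the chaperone HSP47 that procollagen needs to fold, had a difference of 0.02.

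Among the 6 partner lists, basement membrane partners had the highest share at an unadjusted p under 0.05, 31.6%. Of 20 genes 19 were measured, 0 passed, and 5 reached an unadjusted p under 0.05 on the higher side and 1 on the lower (5.5% and 3.94% of all genes), with a median of 0.024. Fras1, a protein that binds epithelial basement membranes to mesenchyme, measured 9.90, 10.05 and 9.93 in wild type and 10.21, 10.23 and 10.32 in Tbx1 null (difference 0.29, SE 0.06, limma adjusted p = 0.132). Its relatives Frem2 and Frem1 differed by 0.29 and 0.26, the laminin chain gene Lamb2 by 0.23 and Hspg2, the perlecan gene, by 0.22. In these 5 genes all Tbx1 null arrays lay above all wild-type arrays, as in 8.36% of all genes. They were picked by their p on the same arrays, so this separation adds little. Lama4, the laminin chain of vessels, was lower by 0.19, with overlap. Epithelial markers lay higher on the same arrays, as given above for the whole list, but not evenly: the keratins Krt14, Krt8, Krt18 and Krt5 had differences of 0.43, 0.24, 0.17 and 0.03, and Epcam and Cldn6 0.0032 and -0.03. Their part in these differences was not tested.

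**Figure D4:**
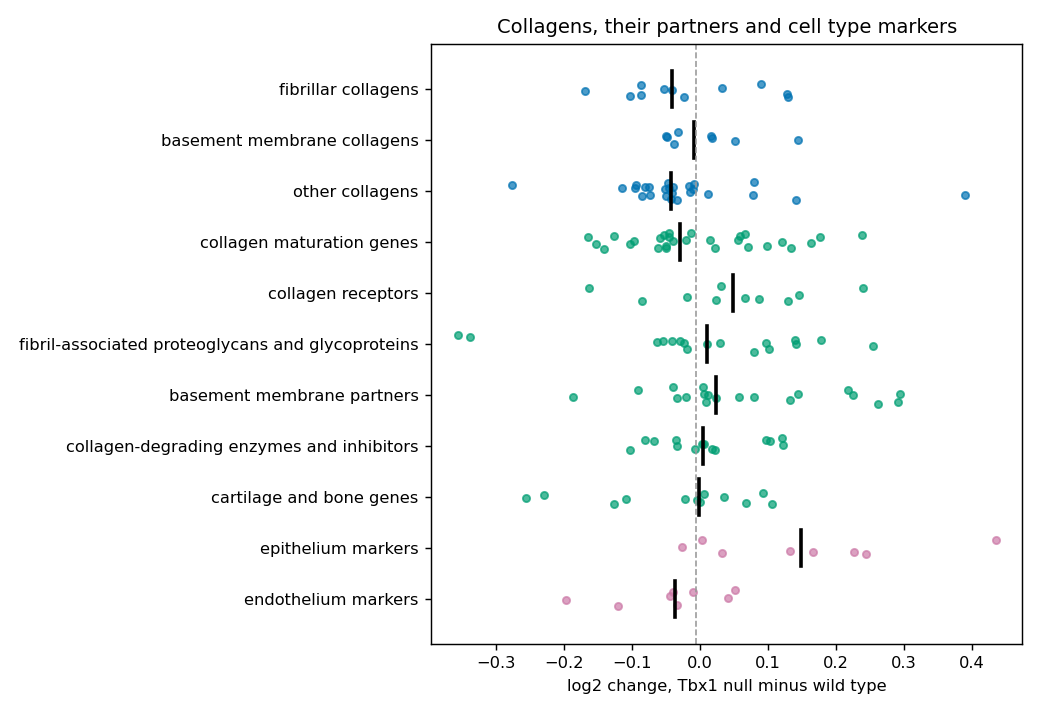
Log2 difference between Tbx1 null and wild type for each measured gene (points, with vertical jitter) of the 3 collagen classes, the 6 lists of partner genes and 2 lists of cell type markers; black bars are medians and the dashed line is the median of all 19938 genes. The collagen medians lie between -0.043 and -0.0083, and the epithelial markers have a median of 0.15.

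The remaining partner lists gave no call. Of 10 collagen receptors measured (of 11), 1 reached an unadjusted p under 0.05 (10%, against 9.44% of all genes). It was Itgb1, the beta chain shared by all collagen-binding integrins, lower at -0.16 (SE 0.07). The integrin gene Itga2 lay on the other side, at 0.24 (SE 0.10). Of the 10 receptors 7 lay above 0 (9265 of all 19938 genes). The collagen receptor kinases Ddr1 and Ddr2 had differences of 0.13 (SE 0.07) and 0.15 (SE 0.15). That of Ddr2 rests on wild type replicate 1 and was -0.05 without it. Of 17 fibril-associated proteoglycans and glycoproteins, 1 was higher and 1 lower at that level (11.8%, against 9.44% of all genes). The higher was Thbs1. The lower was Dcn, the decorin gene, at -0.34 (8.80, 8.29 and 8.57 against 8.03, 8.22 and 8.38). Lum, encoding the related fibril-binding lumican, had a difference of -0.36 (SE 0.17, limma adjusted p = 0.569). Of 14 collagen-degrading enzymes and inhibitors measured (of 15), 1 was higher at that level (7.14%, against 9.44% of all genes in either direction). It was the membrane collagenase gene Mmp14, at 0.12. The medians of the receptor, proteoglycan and degradation lists were 0.049, 0.0098 and 0.0044.

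Cartilage and bone genes are given beside Col2a1 and the type IX chains. Of 12 measured (of 13), 2 reached an unadjusted p under 0.05, both lower (3.94% of all genes), with a median of -0.0020. Sox9, the transcription factor that drives Col2a1 in cartilage, measured 12.45 ± 0.03 in wild type and 12.45 ± 0.06 in Tbx1 null. Its partners Sox5 and Sox6 had differences of 0.09 and 0.07. The 2 lower were Matn3 and Comp, genes of cartilage matrix proteins that bind collagen fibrils, at -0.23 and -0.13 (limma adjusted p = 0.303 and 0.454). Col2a1 therefore lay on the opposite side of 0 from both of these matrix genes, which were picked by their p. Matn3 and Comp had mean levels of 8.07 and 7.24, below the median of all genes, 8.55. Elsewhere in the list Hapln1 had a difference of -0.26, Acan -0.02 and Cnmd 0.04. Of the 12 genes 5 lay above 0 and 7 below. None of these differences passed over all genes.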

How the data were processed

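RNA of E9.5 mandibular arches was measured on arrays of the Affymetrix Mouse Gene ST 1.0 design, from 300 ng of total RNA per the labels' protocols. The deposited log2 values were computed by the authors with RMA (Affymetrix Expression Console 1.1), as the submitters' processing notes state. RMA equalises the arrays, which hides any shift common to most genes. The platform annotation gave 1 gene symbol for 21789 of 35556 probe sets, several for 1621 and none for 12146. Each gene was read from its probe set with the highest mean, which left 19938 genes. All 44 collagens matched a RefSeq gene by Entrez ID and 0 changed symbol.

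The test was a two-sided limma fit without covariates (version 3.58.1, R 4.3.3; lmFit, then eBayes), adjusted by Benjamini-Hochberg over all genes with a threshold of 0.05 and tested on simulated data. Precision is limited by the number of arrays: the median SD within a genotype was 0.0728 and the median SE of a difference 0.0579. Genes were named by a rule: in each class the 4 of lowest p and the 2 of highest level, the largest difference each way, and the chains of types I, IV, V, VI and IX, with up to 3 of lowest p from each other list; the remaining collagens and some list members were named after their values were seen. Members and lists were chosen with earlier results of these data known. Alternatives were a replicate block, leaving out each array, 2 further normalisations, 2 filters on level, 2 variance models, 2 treatments of probe sets and other class definitions. The table held 0 columns of other samples, and 0 pairs of arrays were identical.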

Additional observations from a re-analysis of the deposited data

How the results depend on the processing

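With array weights, 1 collagen passed the threshold (Col23a1), where 1.68% of all genes passed, and 0 passed under the other alternatives. At an unadjusted p under 0.05 there were then 9 collagens (3 higher, 6 lower), 20.5% against 19.2% of all genes. A further quantile normalisation left 10 collagens without overlap (3 higher, 7 lower). Leaving out 1 array gave 3 to 7 collagens at an unadjusted p under 0.05 (6.82% to 15.9%, against 7.20% to 13.6% of all genes). There were 3 without Tbx1 null replicate 1 or 3. Between 7 and 22 had no overlap (15.9% to 50%, against 22.3% to 32.7% of all genes). The 22 were found without wild type replicate 3. There were 10 without wild type replicate 1 (22.7%, against 27.8%) and 10 without Tbx1 null replicate 3 (22.7%, against 24.9%). The fibrillar median lay between -0.12 (without wild type replicate 3) and 0.012 (without Tbx1 null replicate 3). With all 6 arrays 15.4% of all genes had no overlap, so that share also rose with fewer arrays. The cause of the changes for collagens was not tested. The labels do not say that replicate numbers pair arrays, so the numbers were not taken as pairs. Deviations of same-numbered arrays had correlations of -0.045, 0.26 and 0.15, and those of differently numbered arrays -0.37 to 0.25, which does not settle the pairing. With a replicate block 0 collagens passed, and 6 genes passed in all, against 32. At an unadjusted p under 0.05 there were 4 collagens (9.09%, against 11.0% of all genes). Of 29 collagens named by the rule, 19 kept their sign under each alternative that gave them a value (15 for 11 of them, and 14 for 8 that the filter at the median level removes) and 10 did not. With 3 arrays a genotype, differences near 1.25-fold would often be missed.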
